A study of Mus with 4 samples.

Results

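Rpl29, Rps18 and Rpl34 encode proteins of the cytosolic ribosome, and they are 3 of the 54532 genes counted by RNA-seq in LSECs. LSECs, or liver sinusoidal endothelial cells, form the fenestrated wall of the liver's capillaries. The 3 genes were selected on their read counts in these libraries, which differed strongly and in opposite directions between Pofut1 knockout and control cells. The choice rests on the very difference described below, so their values are given as a description, without a test. The rows were taken by their Ensembl identifiers, which are ENSMUSG00000048758 for Rpl29, ENSMUSG00000008668 for Rps18 and ENSMUSG00000062006 for Rpl34. These names came with the choice of the rows, since the count table holds identifiers only, and they could not be checked against an annotation. All 3 genes passed the filter on low counts.

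The P1KO group held 2 libraries of LSECs from mice with a knockout of Pofut1, whose product adds O-linked fucose to EGF-like repeats, such as those of Notch receptors. The CTL group held 2 libraries of LSECs from control mice. Mice of both groups had received carbon tetrachloride (CCl4), a liver toxin used to induce fibrosis. The series' title places the loss of POFUT1 in the endothelium. The Cre driver, the alleles, the strain, the age and the animals behind each library are not stated in the labels. The p-values of the fit to all genes therefore reflect only how far these libraries vary, and that variation may be technical. The labels give liver and LSECs as the source, while the extraction protocol in the same labels names heart ventricles. The series asks which genes link endothelial POFUT1 to the phenotype of LSECs and hepatic stellate cells. The libraries are called KO1, KO3, CTL1 and CTL2 after the columns of the count table. The number of KO3 is in no sample title, so that library was placed in P1KO by its name alone.

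The cytosolic ribosome has a small and a large subunit, and each holds 1 copy of most of its proteins. Their mRNAs are as a rule abundant and carry a pyrimidine tract at the 5′ end through which mTOR signalling controls their translation. Mammalian genomes also hold many processed pseudogenes of these genes, which are copies of their mRNAs inserted elsewhere in the genome and are often nearly identical to them. Rps18 encodes a protein of the head of the small subunit, and its mRNA is a common reference transcript in quantitative PCR. Rpl29 encodes a small basic protein of the large subunit, and mice that lack it are viable but small. Rpl34 encodes a further protein of the large subunit.

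The 3 genes lie on different chromosomes. The following coordinates are those of the RefSeq genes with these symbols in GRCm38.p6, the assembly that mm10 represents. Rpl29 spans chr9:106428889-106431568, between Dusp7 and Acy1. Rps18 spans chr17:33951998-33955665, between B3galt4 and Vps52 and next but one to H2-K1, in the major histocompatibility complex. Rpl34 spans chr3:130726827-130730398, between Ostc and Lef1. All 3 are annotated as protein-coding.

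The same annotation lists copies named after each gene, none of them on the chromosome of its parent gene. Rpl29 has 5 such entries, all annotated as pseudogenes and each on a different chromosome. Rps18 has 6 entries on 3 chromosomes, of which 5 are annotated as pseudogenes and Rps18-ps4 as a long non-coding RNA. Rpl34 has 2 entries. Of these, Rpl34-ps2 on chromosome 13 is annotated as a pseudogene, and Rpl34-ps1, of 413 bases on chromosome 6, is annotated as protein-coding. Copies annotated under other names were not searched for. Which rows of the count table hold these copies was not identified. No label states how the authors' counting treated reads that match several copies, so the counts of all 3 genes are uncertain in this respect.

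Rpl29 was scarce in P1KO and abundant in CTL. It had 90 reads in KO1 and 108 in KO3, against 3436 in CTL1 and 3400 in CTL2. After scaling for library size these are 5.11 and 6.07 CPM, or reads per 1e6 reads counted, in P1KO, and 196 and 190 CPM in CTL. Both P1KO libraries were low, both CTL libraries were high, and the groups did not overlap. The mean was 5.59 ± 0.674 CPM in P1KO and 193 ± 3.77 CPM in CTL (SD, n = 2 each). The fitted log2 fold change, P1KO over CTL, was -5.11. From the summed reads, 198 in P1KO and 6836 in CTL, the level in CTL was 34.5 times that in P1KO, and the 95% interval of this ratio ran from 30.0 to 39.9. This interval, like the others below, is exact and covers counting error only.

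Rps18 was lower in P1KO as well, but by less. It had 555 reads in KO1 and 486 in KO3, against 3752 in CTL1 and 3856 in CTL2. The levels were 31.5 and 27.3 CPM in P1KO, and 214 and 216 CPM in CTL. The groups did not overlap, and the CTL libraries were almost equal. The mean was 29.4 ± 2.99 CPM in P1KO and 215 ± 1.56 CPM in CTL (SD, n = 2 each), with a fitted log2 fold change of -2.87. From the summed reads the level in CTL was 7.30 times that in P1KO. The 95% counting interval of this ratio was 6.85 to 7.80.

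Rpl34, which like Rpl29 belongs to the large subunit, had the opposite pattern. It had 2467 reads in KO1 and 3005 in KO3, against 166 in CTL1 and 192 in CTL2. The levels were 140 and 169 CPM in P1KO, and 9.45 and 10.7 CPM in CTL. Both P1KO libraries were high and both CTL libraries low, with no overlap. The mean was 154 ± 20.3 CPM in P1KO and 10.1 ± 0.916 CPM in CTL (SD, n = 2 each), with a fitted log2 fold change of 3.93. From the summed reads the level in P1KO was 15.3 times that in CTL, with a 95% interval of 13.7 to 17.1. None of the 3 genes was absent from a group, since the lowest count was the 90 reads of Rpl29 in KO1. In such bulk libraries, fewer cells of a type and less RNA per cell cannot be told apart.

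**Figure D1:**
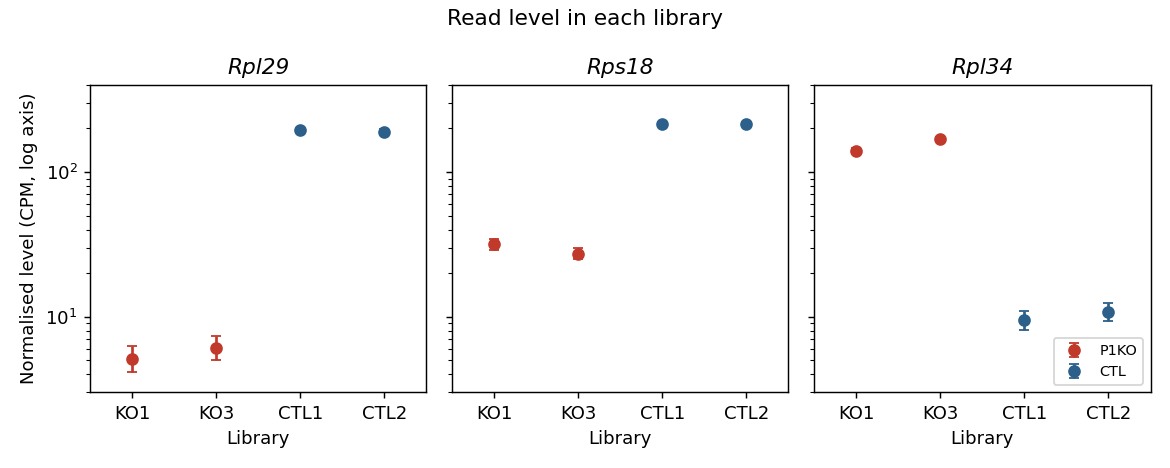
Level of Rpl29, Rps18 and Rpl34 in CPM on a log axis in each P1KO library (KO1, KO3; red) and each CTL library (CTL1, CTL2; blue), with 1 point per library and bars for the exact 95% interval of the read count. Rpl29 and Rps18 lie lower in both P1KO libraries, at 5.11 to 6.07 and 27.3 to 31.5 CPM, and Rpl34 lies higher, at 140 to 169 CPM.

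The difference between the groups was far larger than that within them. Across the 4 ways to set a P1KO library against a CTL library, the log2 ratio ran from -5.26 to -4.97 for Rpl29, from -2.98 to -2.76 for Rps18 and from 3.70 to 4.16 for Rpl34. Between the P1KO libraries, the log2 ratio of KO3 over KO1 was 0.25 for Rpl29, -0.21 for Rps18 and 0.27 for Rpl34. The 95% counting intervals of KO3 and KO1 reached from 4.98 to 7.33 and from 4.11 to 6.29 CPM for Rpl29. They were 24.9 to 29.8 and 29.0 to 34.3 CPM for Rps18, and 163 to 175 and 135 to 146 CPM for Rpl34. Rpl34 was thus higher in KO3 than in KO1, with intervals that did not overlap. By point values alone, Rpl29 was higher in KO3 and Rps18 was lower, and the intervals of each overlapped. CTL2 over CTL1 gave log2 ratios of -0.04 for Rpl29, 0.01 for Rps18 and 0.19 for Rpl34, the gene with the fewest CTL reads.

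As percentages of the mean, the SD between the P1KO libraries was 12.1 for Rpl29, 10.2 for Rps18 and 13.1 for Rpl34. It was 1.95, 0.725 and 9.07 between the CTL libraries, for the same genes in the same order. Over the 1805 tested genes whose higher group averaged 100 to 300 CPM, the range that holds all 3 genes, the median was 4.04% in P1KO and 1.81% in CTL. All 3 genes thus varied more between the P1KO libraries than the median gene of this range. The range is set by the higher group, however. Rpl29 and Rps18 averaged 5.59 and 29.4 CPM in P1KO, and Rpl34 10.1 CPM in CTL, where fewer reads bring more counting error. Over all tested genes, the median was 7.30% in P1KO and 4.77% in CTL. The wider spread in P1KO was shared by the tested genes at large.

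Because ribosomal proteins are needed in equal numbers, the ratios between the genes within a library are of interest. The counts are of mRNA, however, whose ratios need not be those of the proteins, and no protein was measured here. Such ratios do not depend on how libraries are scaled, and the lengths of the transcripts cancel when groups are compared. Each read of Rpl29 stood against 27.4 reads of Rpl34 in KO1 and 27.8 in KO3, but against 0.0483 in CTL1 and 0.0565 in CTL2. The log2 ratio of Rpl29 over Rpl34 was -4.79 ± 0.0153 in P1KO and 4.26 ± 0.159 in CTL (SD, n = 2 each), a difference of -9.05. The order of the read counts of these large-subunit genes was thus turned round between the groups.

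Rps18 over Rpl34 was -2.39 ± 0.337 in P1KO and 4.41 ± 0.121 in CTL on the same log2 scale (SD, n = 2 each), a difference of -6.80. The pair of genes that were both lower in P1KO did not keep its ratio either. Rps18 had 6.17 reads per read of Rpl29 in KO1 and 4.50 in KO3, against 1.09 in CTL1 and 1.13 in CTL2. In log2 units this is 2.40 ± 0.321 in P1KO and 0.15 ± 0.0386 in CTL (SD, n = 2 each), a difference of 2.24.

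**Figure D2:**
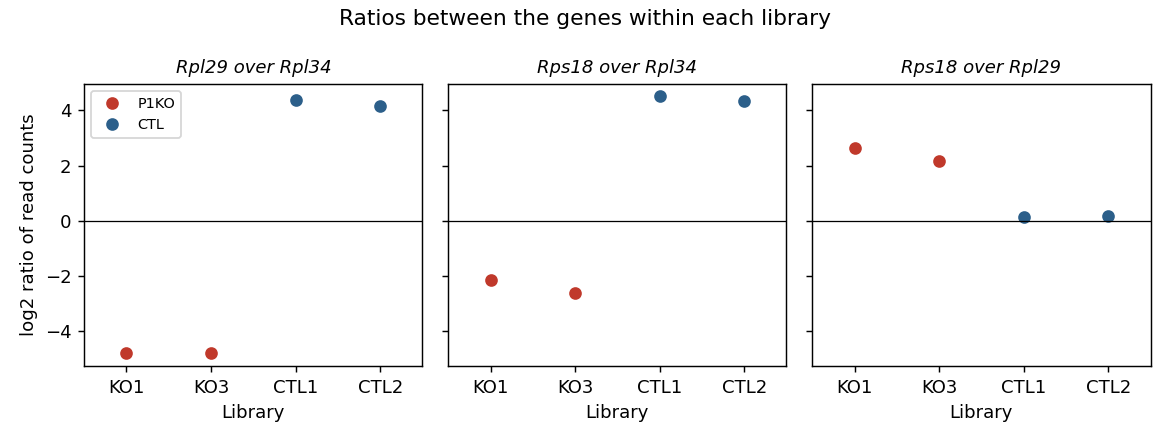
Log2 ratio of the read counts of each pair of genes within each P1KO library (KO1, KO3; red) and each CTL library (CTL1, CTL2; blue), with a line at equal counts. Both ratios to Rpl34 lie below the line in P1KO, at means of -4.79 and -2.39, and above it in CTL, at 4.26 and 4.41, and Rps18 over Rpl29 is higher in P1KO.

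Summed over the 3 genes, the level was 177 CPM in KO1 and 202 CPM in KO3, against 419 CPM in CTL1 and 417 CPM in CTL2. Rpl34 made up 79.3% and 83.5% of that sum in P1KO, but 2.26% and 2.58% in CTL. In CPM, the P1KO mean was below the CTL mean by nearly the same amount for Rpl29, 187 CPM, and for Rps18, 185 CPM. For Rpl34 it was above the CTL mean by 144 CPM, which is less than either of these amounts.

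The place of each gene among the 15510 tested genes moved accordingly. By reads, not per length, Rpl29 stood above 30.4% of the tested genes in KO1 and 32.3% in KO3, against 93.8% in CTL1 and 93.6% in CTL2. Rps18 stood above 61.1% and 58.5% in the P1KO libraries, against 94.5% in each CTL library. Rpl34 stood above 90.1% and 92.3% in P1KO, against 37.8% and 39.7% in CTL. Rpl29 in P1KO and Rpl34 in CTL were both below the median tested gene of their libraries, which was at 18.0 to 18.2 CPM in P1KO and 19.0 CPM in each CTL library. Rps18 remained above it.

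**Figure D3:**
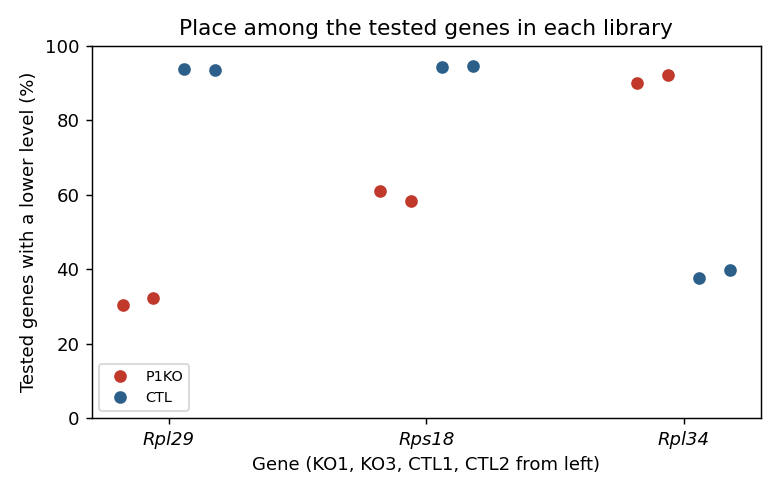
Percentage of the 15510 tested genes with a lower CPM than Rpl29, Rps18 or Rpl34 in each P1KO library (red) and each CTL library (blue), with 1 point per library. Rpl29 stands at 30.4% and 32.3% in P1KO and at 93.8% and 93.6% in CTL, and Rpl34 at 90.1% and 92.3% in P1KO and at 37.8% and 39.7% in CTL.

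Over all tested genes, 3027 passed at an adjusted p below 0.05 in either direction (edgeR quasi-likelihood test, Benjamini-Hochberg adjustment), which is 19.5%. That count rests on the closeness of the CTL libraries, since it was 129 without CTL1 and 120 without CTL2, against 5391 without KO1 and 5208 without KO3. The median log2 fold change was -0.01 over all tested genes and 0.07 over the 1805 genes at 100 to 300 CPM, and the central 95% of these 1805 genes lay between -0.82 and 0.75.

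Changes as large as those of Rpl29, Rps18 and Rpl34 were rare in the table. A fitted fold change of at least 7 was seen for 32 genes lower in P1KO, 0.206% of the tested genes, and for 32 genes higher in P1KO, also 0.206%. At 100 to 300 CPM, 4 genes were lower by that much (0.222%) and 5 were higher (0.277%), and Rpl29 and Rps18 are among the 4 and Rpl34 among the 5. By size of the fold change, Rpl29 was the 5th and Rps18 the 27th of the genes lower in P1KO, and Rpl34 was the 12th of the genes higher in P1KO. Rps18, at 7.30-fold, is close to the 7-fold line that describes the choice, where the nearest genes lower in P1KO were at 7.06-fold inside and 6.90-fold outside it. The groups did not overlap for any of the 3 genes, nor for 62.6% of all tested genes. The genes were chosen for their fold changes, so nothing is read from these ranks and counts beyond their size.

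**Figure D4:**
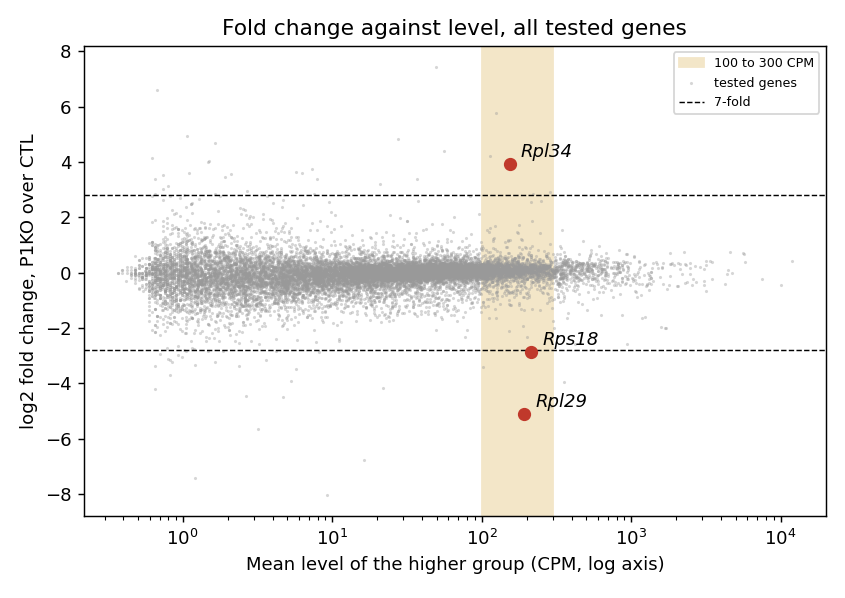
Log2 fold change, P1KO over CTL, of each of the 15510 tested genes (grey) against the mean CPM of the group in which it was higher, on a log axis, with Rpl29, Rps18 and Rpl34 in red, lines at 7-fold in each direction and the range from 100 to 300 CPM shaded. Rpl29 at -5.11 and Rps18 at -2.87 lie below the lower line and Rpl34 at 3.93 above the upper one, while 95% of the genes in the shaded range lie between -0.82 and 0.75.

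Since near-identical copies could exchange reads with these genes, the whole table was searched for single rows with a difference of the opposite sign and of like size. No row that averaged below 20 CPM in CTL gained as much in P1KO as Rpl29 or Rps18 lost. Among rows of any level, 57 gained at least as much as Rpl29 lost, and 61 at least as much as Rps18 lost. All of these were at 20 CPM or more in CTL already. A copy that was itself at such a level in CTL would be among them and was not told apart, so nothing is concluded from the cut. At 0.5 times the loss or more, 161 rows gained against Rpl29 and 164 against Rps18, and in each case 3 of them averaged below 20 CPM in CTL, of which 1 was Rpl34. In the opposite direction, 104 rows lost at least as much as Rpl34 gained. Of these, 2 averaged below 20 CPM in P1KO, namely Rpl29 itself and ENSMUSG00000044533. Rps18 also lost more than Rpl34 gained, but it averaged 29.4 CPM in P1KO and so fell outside the cut. At 0.5 times the gain of Rpl34 or more, 208 rows lost, and 3 of them averaged below 20 CPM in P1KO, Rpl29 included. Reads spread over several rows, or left uncounted, were not traced, and whether the groups differ in strain background was not tested.

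The genes whose pattern over the 4 libraries was most like that of each gene were found by the distance between log2 CPM values centred on the CTL mean. For Rpl29, 1 gene lay within a distance of 1 log2 unit, ENSMUSG00000044533, at 0.82. It had 13.4 and 7.47 CPM in KO1 and KO3, against 294 and 292 CPM in CTL1 and CTL2. Its level thus differed about as deeply as that of Rpl29, but it was lower in KO3 than in KO1. Rpl29 was higher in KO3 by its point value alone, at 108 reads against 90 in KO1, and its counting intervals overlapped. For Rps18, 23 genes lay within 1 log2 unit. The nearest, at 0.36, was ENSMUSG00000092557, with 0.455 and 0.337 CPM in P1KO against 2.96 and 4.25 CPM in CTL. It was far scarcer in reads than Rps18, with 8 reads in KO1 and 6 in KO3. The gene placed next, at 0.46, was deeply counted. That gene had 3335 reads in KO1 and 2274 in KO3, against 16349 in CTL1 and 16973 in CTL2.

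For Rpl34, 4 genes lay within 1 log2 unit. The nearest were ENSMUSG00000038370 at 0.66 and ENSMUSG00000004110 at 0.68. ENSMUSG00000038370 had 53.2 and 58.9 CPM in KO1 and KO3, against 2.22 and 3.08 CPM in CTL1 and CTL2. ENSMUSG00000004110 had 6.70 and 8.03 CPM in KO1 and KO3, against 0.626 and 0.448 CPM in CTL1 and CTL2. Both were higher in KO3 than in KO1, as was Rpl34. These genes were picked for their likeness, so their differences are no evidence of their own, and their symbols are not known here.

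The other ribosomal protein genes, the genes of translation and ribosome biogenesis, the chromosomal neighbours and the named copies of the 3 genes, the markers of LSECs, hepatocytes and other cells, and Pofut1 itself were not analysed here, because the reference table gave a symbol for 0 of the 54532 identifiers. Whether other ribosomal protein genes differed between the groups, and whether the libraries show the markers of their labelled cell type and genotype, was therefore not checked. With 2 libraries per group, an exact permutation test of a single gene could not reach a p below 0.05.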

How the data were processed

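The authors deposited 1 table of raw read counts for 54532 Ensembl identifiers in 4 columns. Every column entered the fit. The submitters' processing notes name mm10 as the build and featureCounts 1.5.0-p3, HISAT2 2.0.5, fastp and CASAVA as tools. They do not state the annotation release, the strand setting or the treatment of reads with several matches. Libraries held 17464769 to 17918834 counts, so that 1 read was worth 0.0560 to 0.0570 CPM.

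In R 4.3.3, edgeR 4.0.16 filtered low counts (filterByExpr, 15510 genes kept), scaled libraries by TMM and compared P1KO with CTL by the quasi-likelihood F-test without covariates, with Benjamini-Hochberg adjustment over all tested genes. The method was tested on simulated data. CPM and fold changes were computed here. Log2 CPM used a prior count of 2. Intervals are exact (Poisson for a library, binomial for a ratio). DESeq2 1.42.0, limma-voom (limma 3.58.1), other scalings, other filters and leaving out each library were alternatives. Genes to be named were the 3 genes themselves and their most alike genes, at most 2 identifiers per direction. The genes, lists and ranges were chosen with earlier results of these data known. The reference gene table (GRCm38.p6, 49997 genes) served for loci and names of copies.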

Additional observations from a re-analysis of the deposited data

How the results depend on the processing

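The fold changes of the 3 genes kept their direction under all alternatives run. Across the 6 other scalings, filters and fold change estimates, the log2 fold change, P1KO over CTL, lay between -5.12 and -5.10 for Rpl29, -2.88 and -2.86 for Rps18, and 3.92 and 3.94 for Rpl34. With 1 library left out it ran from -5.24 to -4.99 for Rpl29, from -2.98 to -2.77 for Rps18 and from 3.79 to 4.06 for Rpl34. The number of genes called over the whole table was less stable. Without a filter on low counts it was 1633, 810 higher and 823 lower in P1KO, and with 1 library left out it ran from 120 to 5391, from 54 to 2675 higher and from 66 to 2716 lower. In those fits a lone library was assumed to vary like the other group. DESeq2, limma-voom, both other scalings and the filter at 5 CPM kept it within 1.5 times of 3027.

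No paired analysis was possible because the columns of the groups share fewer than 2 replicate numbers, and no label ties a P1KO library to a CTL library. The comparisons over lists of ribosomal protein, translation, neighbouring and copied genes were not run, for lack of symbols. Counting error limits Rpl29 in P1KO (90 and 108 reads) and Rpl34 in CTL (166 and 192 reads) most.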
